A study of Homo sapiens with 6 samples.

Results

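The genes described here are the numbered zinc finger genes (ZNF) of human chromosome 19. They were taken as the rows of the deposited gene table whose symbol is ZNF followed by a number, with or without a letter, and whose chromosome is 19. The rule found 191 genes of 14959, and it used no expression value. The established line UM-SCC1, from a squamous cell carcinoma of the head and neck, was transfected with miR-204-5p mimics in 3 cultures and with control mimics in 3 cultures, and RNA was collected 48 h later. A mimic is a short synthetic RNA duplex that the cell loads as it would the mature miRNA, and both groups carried such an oligonucleotide and the transfection reagent, so the contrast is between oligonucleotide sequences in a single cell line. The series describes 3 independent experiments per group.

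Most ZNF proteins of this kind bind DNA through a run of C2H2 zinc fingers, each of which holds a zinc ion and reads a few bases. Many of those on chromosome 19 also carry a KRAB domain, which binds the scaffold protein TRIM28, and TRIM28 in turn brings the histone methyltransferase SETDB1 and heterochromatin proteins to the bound site. Retrotransposons are well-known targets of KRAB zinc finger proteins. The genes lie in clusters along the chromosome that grew by tandem duplication, so that neighbours are often related in sequence.

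Expression was given in FPKM, the fragments assigned to a gene, scaled by transcript length in kilobases and by the size of the library. A single transcript is listed per gene, and whether the FPKM was computed on it alone is not given. The table holds no counts. Depth was inferred from the most frequent FPKM times transcript length under a fixed limit, taken as 1 fragment, and the limit bounds it from below. It came to 13.0 to 16.4 M fragments per library, at which 1 fragment on 1 kb equals 0.0611 to 0.0767 FPKM. Only 7.93% to 10.1% of low values were whole fragments within 0.02. ZNF83, above 0 in every library, came out at 0.161 to 0.604 fragments. Inferred fragments given below are therefore approximate. The libraries of a group were closer to each other (Spearman correlation over all genes of 0.990 to 0.991) than to those of the other group (0.973 to 0.976), and no library stood apart. The epithelial markers KRT5, KRT14, KRT17, TP63, EPCAM and CDH1 ranged from 23.9 to 283 FPKM over the 6 libraries, and KRT6A from 0.970 to 3.36. COL1A2, PDGFRB, PTPRC, PECAM1 and VWF, which mark fibroblasts, leukocytes and endothelial cells, did not exceed 0.625 FPKM, while the fibroblast marker COL1A1 reached 8.04 to 10.5. Differences between the groups were tested with limma on log2(FPKM + 1) over all 14959 genes, two-sided, with Benjamini-Hochberg adjustment at 0.05. Every log2 fold change below is on that scale, on which the change of a gene with low values comes out too small, and a transcript present in fewer cells cannot be told apart from less transcript per cell.

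The 191 chromosome 19 ZNF genes were expressed at low levels and, as a group, moved little. Their median level was 1.64 FPKM against 5.91 over all genes, and 56 of them lay under 1 FPKM. Together they made up 0.160% to 0.172% of all FPKM in a library. Their summed FPKM was 466, 481 and 487 with miR-204-5p mimics (mean 478 ± 10.9, SD, n = 3) and 462, 472 and 467 with control mimics (467 ± 5.30, n = 3), so the groups overlapped. The median log2 fold change of the members was 0.02 and that of all genes 0.03, and 80% of the members lay between -0.21 and 0.31, against -0.35 and 0.44 over all genes. A log2 difference over 0.5 in either direction was seen in 9 members (4.71%) and in 13.0% of all genes.

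Of the 191 members, 34 (17.8%) passed the limma test, whereas 40.8% of all genes did. The 24 members that rose were 12.6% of the list (23.9% of all genes rose), and the 10 that fell were 5.24% (16.8% of all genes fell). At an unadjusted limma p under 0.05 the counts were 35 higher and 20 lower of 191, against 4290 higher and 3105 lower of all 14959 genes. The 3 libraries of each group did not overlap in 69 members (36.1%, against 53.6% of all genes), with 43 higher and 26 lower. The balance of directions depended on scaling. Of the members that passed, the higher ones were 70.6% with the FPKM as deposited (24 higher, 10 lower), 57.1% after the libraries were scaled to equal medians or to equal sums (20 and 15), and 41.7% after quantile normalization (15 and 21). The median of the members went from 0.02 to -0.03 with quantile normalization.

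**Figure D1:**
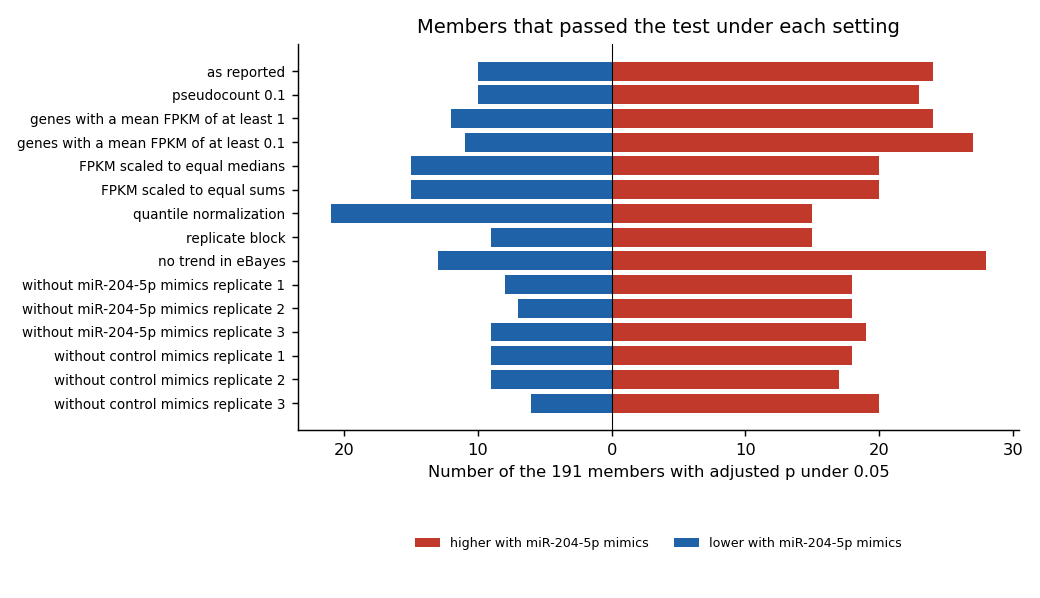
Number of the 191 members with an adjusted p under 0.05 in the limma test, drawn to the right of 0 for higher and to the left for lower with miR-204-5p mimics, for the test as reported and for each of the 14 alternatives. The reported setting gives 24 higher and 10 lower, and quantile normalization is the setting with more lower (21) than higher (15) members.

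Because the members are low in level, the shares were also set side by side within bands of mean FPKM. Under 0.5 FPKM, 1 of 33 members passed (3.03%, against 12.5% of all genes in that band). Between 0.5 and 2 FPKM, 20 of 76 passed (26.3% against 35.6%), of which 16 were higher and 4 lower. Over 2 FPKM, 13 of 82 passed (15.9% against 48.8%), of which 7 were higher and 6 lower. This band has no upper limit, and the lists are not matched in level within it. Its median level was 3.69 FPKM for the members and 10.7 for all genes. For ZNF genes of other chromosomes it was 4.82, and for other chromosome 19 genes 14.9. The ZNF genes of the other chromosomes passed in 71 of 234 cases (30.3%, 33 higher and 38 lower, and 22 and 48 with quantile normalization). Over 2 FPKM they passed in 53 of 152 (34.9%), and between 0.5 and 2 FPKM in 17 of 61 (27.9%), near the share of the members. The genes of chromosome 19 that are not in the list passed in 322 of 941 cases (34.2%, 174 higher and 148 lower, and 142 and 170 with quantile normalization). Between 0.5 and 2 FPKM 27 of 125 of them passed (21.6%), and over 2 FPKM 270 of 628 (43.0%). The differences between these shares were not tested, since genes are not replicates.

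**Figure D2:**
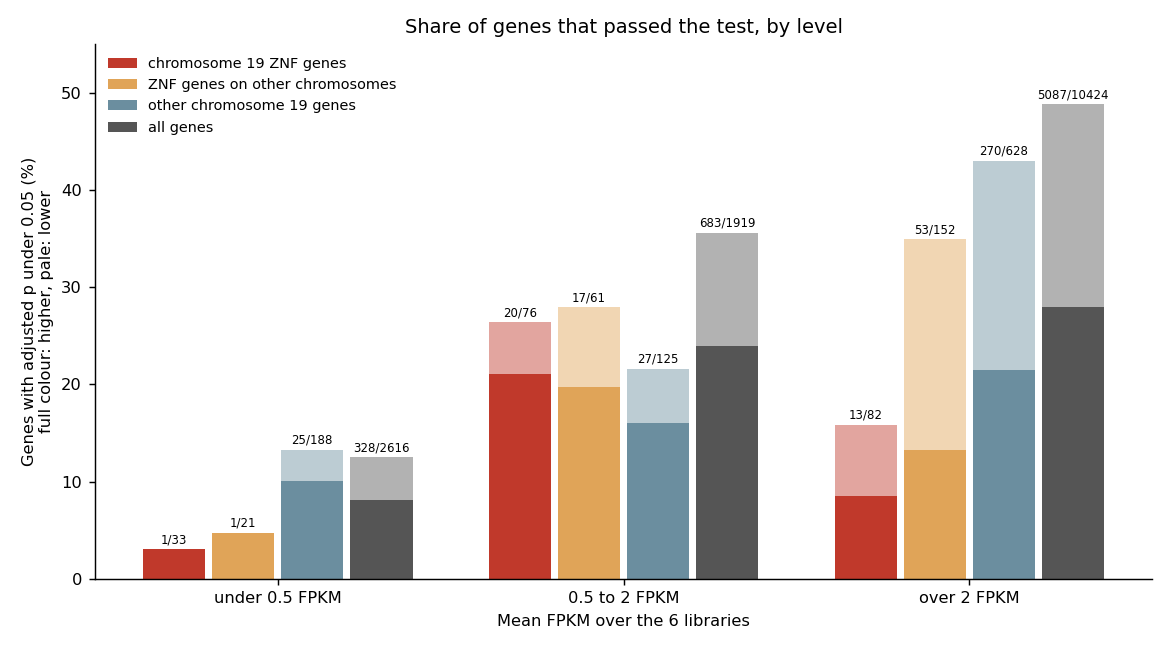
Share of genes (%) with an adjusted p under 0.05 in the limma test, in 3 bands of mean FPKM, for chromosome 19 ZNF genes, ZNF genes of other chromosomes, other chromosome 19 genes and all genes. Full colour marks higher and pale colour lower genes, and the fraction on top of each bar gives genes passed over genes in the band. Over 2 FPKM the bar of the chromosome 19 ZNF genes (13 of 82) is the lowest of the 4. That band has no upper limit, and the median level in it is 3.69 FPKM for these genes and 10.7 for all genes.

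On the log2(FPKM + 1) scale, the largest rises among members that passed were those of ZNF333, ZNF681 and ZNF558 (log2 fold changes of 0.68 to 0.80). ZNF333 (ENSG00000160961, hg38 chr19:14690049-14716183, plus strand) is a KRAB zinc finger gene with no other member within 1 Mb. It was at 1.75, 1.93 and 1.93 FPKM in the miR-204-5p libraries and at 0.660, 0.537 and 0.756 in the control libraries. The groups were far apart, with a mean 2.87 times as high and a log2 fold change of 0.80 (SE 0.0680, limma adjusted p = 0.000314). The transcript listed for it has 1129 bases and is annotated as a target of nonsense-mediated decay, the longest transcript of the gene having 4672. On the listed length, the inferred fragments were 8.43 to 34.7 per library.

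ZNF681 (ENSG00000196172, chr19:23739195-23758891, minus strand) was at 1.55, 1.57 and 1.40 FPKM with miR-204-5p mimics and at 0.527, 0.544 and 0.456 with control mimics. Its mean was 2.96 times as high (log2 fold change 0.73, SE 0.0540, limma adjusted p = 0.000194). Its listed transcript of 6497 bases is the longest of the gene. ZNF558 (ENSG00000167785, chr19:8806170-8832328, minus strand), a KRAB zinc finger gene linked to control of the mitochondrial gene SPATA18, was at 5.20, 5.45 and 5.72 FPKM against 2.95, 3.04 and 3.09. That is 1.80 times as high (log2 fold change 0.68, SE 0.0587, limma adjusted p = 0.000325), with 292 to 627 inferred fragments per library.

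ZNF587B read 2.30, 2.67 and 2.25 FPKM after the miR-204-5p mimics and 1.39, 1.27 and 1.32 after the control mimics, a log2 fold change of 0.55. The listed transcript shares 30.0% of its 100-base windows with AC010522.1, ZNF814 or ZNF552, so its value is uncertain. ZNF529 read 1.86, 2.31 and 2.86 against 1.30, 1.27 and 1.33 (log2 fold change 0.53). Its listed transcript has only 395 bases, which gives 6.98 to 17.6 inferred fragments per library, and 25.6% of it is overlapped by exons of the opposite strand. ZNF284 read 1.72, 1.92 and 1.85 against 1.07, 1.14 and 1.20 (log2 fold change 0.40), with 42.5% of its windows shared with AC067968.1. None of the 3 pairs of groups overlapped, and their limma adjusted p-values were 0.00131, 0.00931 and 0.00217.

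The rises named were the 10 largest among members with a mean of at least 1 FPKM in a group, and the other 4 of them were smaller. ZNF555 lay between 0.982 and 1.34 FPKM in the control libraries and between 1.75 and 1.87 in the miR-204-5p libraries, a log2 fold change of 0.39. ZNF551 lay between 1.09 and 1.40 and between 1.76 and 1.90 (log2 fold change 0.35), and ZNF30 between 1.15 and 1.28 and between 1.67 and 1.94 (0.32). ZNF761 is the most abundant of the 10, with 12.2, 13.0 and 12.2 FPKM against 9.28, 9.87 and 10.3 (0.31), and has 938 bases in its listed transcript. Their limma adjusted p-values ranged from 0.00513 to 0.00869, and all 10 rises held under each of the 14 alternatives.

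**Figure D3:**
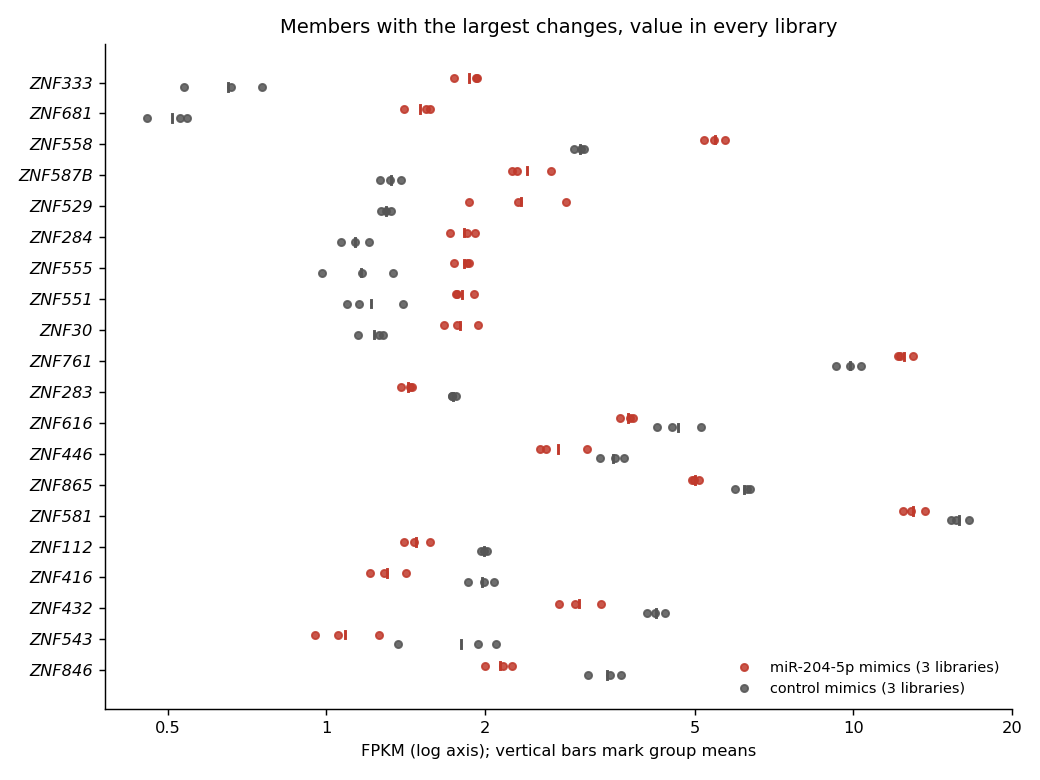
FPKM on a log axis of the 10 members with the largest rises and the 10 with the largest falls among those that passed the test with a mean of at least 1 FPKM in a group, a point per library (red, miR-204-5p mimics; grey, control mimics) and a vertical bar at each group mean. ZNF333 and ZNF681 show the widest gaps, from means of 0.651 and 0.509 to 1.87 and 1.51 FPKM, and the 3 red and 3 grey points do not overlap in any of the 20 genes.

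All 10 members that fell met the rule for naming, and their falls were smaller than the largest rises. ZNF846 (ENSG00000196605, chr19:9751993-9768617, minus strand) fell most in log2(FPKM + 1), from 3.63, 3.14 and 3.45 FPKM with control mimics to 2.16, 2.25 and 2.00 with miR-204-5p mimics. The log2 fold change was -0.49 (SE 0.0698, limma adjusted p = 0.00217), a mean lower by 37.3%, and the listed transcript is annotated as a target of nonsense-mediated decay. ZNF543 read 1.37, 1.94 and 2.10 with control mimics and 0.951, 1.26 and 1.05 in the miR-204-5p libraries (log2 fold change -0.42, SE 0.115, limma adjusted p = 0.0272). Its mean was lower by 39.7%, a larger share than in ZNF846. The groups are close at 1.26 and 1.37, and the call is lost (limma adjusted p of 0.0736 to 0.0832) without replicate 1 or 3 of the miR-204-5p mimics or replicate 2 or 3 of the control mimics.

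ZNF432, whose protein has been tied to the DNA damage response, fell from 4.20, 4.05 and 4.40 FPKM to 3.32, 2.77 and 2.96 (log2 fold change -0.38, limma adjusted p = 0.00681). ZNF416 fell from 1.99, 1.86 and 2.08 to 1.41, 1.21 and 1.29 (-0.37, limma adjusted p = 0.00429). In both, the highest library with miR-204-5p mimics lay below the lowest with control mimics. ZNF112 lay between 1.97 and 2.02 FPKM in the control libraries and between 1.40 and 1.58 in the others (-0.27, limma adjusted p = 0.00876). ZNF865 lay between 5.95 and 6.37 and between 4.94 and 5.10 (-0.26, limma adjusted p = 0.00878). ZNF581, the most abundant of the falls, lay between 15.3 and 16.6 and between 12.4 and 13.7 (-0.27, limma adjusted p = 0.00810), and shares 12.7% of its windows with its overlapping neighbour ZNF580.

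The remaining falls were less firm. ZNF446, which encodes a SCAN domain besides its fingers, read 3.52, 3.67 and 3.30 FPKM with control mimics and 2.61, 2.54 and 3.12 in the miR-204-5p libraries (log2 fold change -0.26). It shares 34.6% of its windows with ZNF324, and 30.2% of it is overlapped on the opposite strand by AC012313.7 and SLC27A5. ZNF616 (-0.25) and ZNF283 (-0.18) changed by under 20%, with limma adjusted p-values of 0.0368 and 0.0317, and that of ZNF446 was 0.0390. These 3 calls did not hold when single libraries were left out. ZNF283 was lost without any of the 6 libraries in turn (adjusted p up to 0.0945), ZNF446 without any but replicate 3 of the miR-204-5p mimics (up to 0.115), and ZNF616 without any but replicate 1 of the control mimics (up to 0.104).

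Among all 34 members that passed, 14 of the 24 rises and 6 of the 10 falls were kept in every alternative run. The 13 rises outside the naming rule or not yet named, chosen for mention after their values were seen, are ZNF441, ZNF20, ZNF708, ZNF738, ZNF100, ZNF724, ZNF599, ZNF345, ZNF233, ZNF816, ZNF784, ZNF552 and ZNF497. ZNF345 showed the largest of these, with 0.936, 1.03 and 0.806 FPKM against 0.483, 0.303 and 0.462 (log2 fold change 0.44, limma adjusted p = 0.00376). Its group means stayed under 1 FPKM, as did those of ZNF497 (0.38), and both exceeded several of the rises named above. As ratios of means, ZNF345 was 2.22 times and ZNF497 1.92 times as high, above the 1.80 times of ZNF558.

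Along the chromosome the members formed 17 clusters when a gap of over 1 Mb between the starts of neighbours opened a new cluster, and 20 when the gap was 0.5 Mb. The largest cluster ran from ZNF264 to ZNF446 (57.19 to 58.48 Mb) and held 38 members, of which 4 rose and 3 fell. The next ran from ZNF565 to ZNF573 (36.18 to 37.77 Mb, 24 members, 2 rose and none fell), from ZNF175 to ZNF331 (51.57 to 53.58 Mb, 23 members, 2 and 2), from ZNF653 to ZNF791 (11.48 to 12.63 Mb, 22 members, 2 and none) and from ZNF575 to ZNF296 (43.53 to 45.08 Mb, 22 members, 2 and 2). The median log2 fold changes of these 5 clusters lay between -0.06 and 0.03. Rises were 8.33% to 10.5% of their members and falls at most 9.09%, against 23.9% and 16.8% of all genes.

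Falls and rises were spread unequally over the chromosome. In the 11 clusters before 42.23 Mb, with 97 members, 15 rose (15.5%) and 1 fell (1.03%), the single fall being that of ZNF846. In the 6 clusters after 43.53 Mb, with 94 members, 9 rose and 9 fell (9.57% each). Over all genes 23.9% rose and 16.8% fell, so both shares were below those of all genes in each stretch. With quantile normalization the counts were 11 and 5 in the first stretch and 4 and 16 in the second, so the first held more rises than falls in both. This division was chosen after the values were seen, and the difference was not tested.

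**Figure D4:**
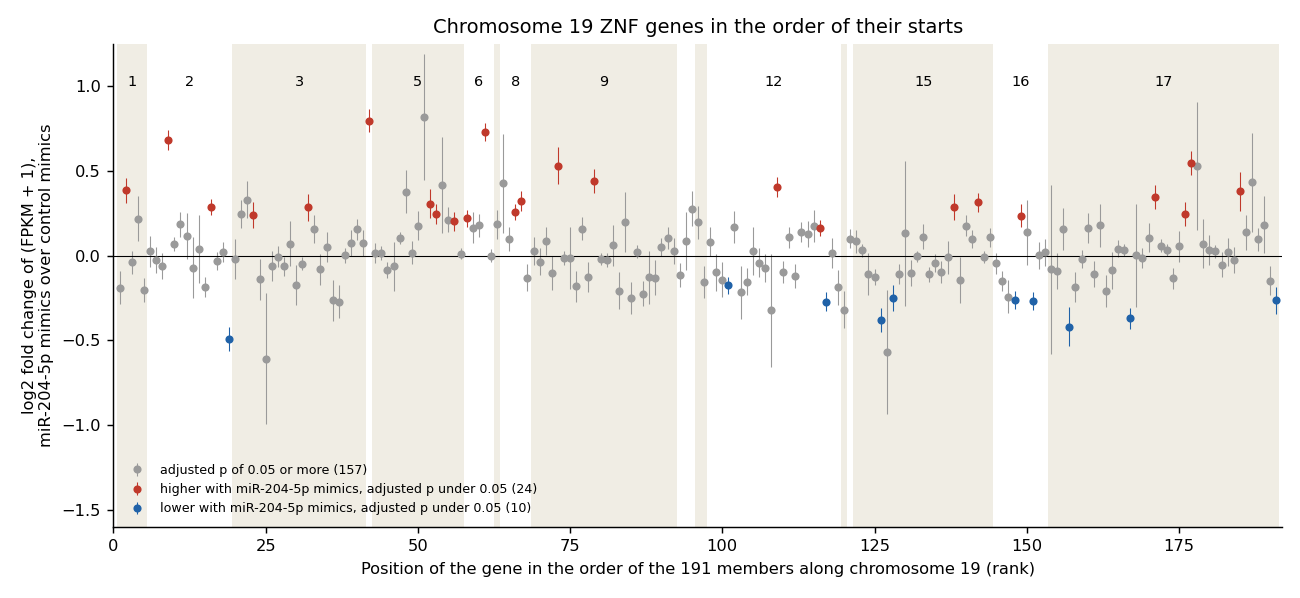
Log2 fold change of (FPKM + 1), miR-204-5p mimics over control mimics, of the 191 members in the order of their starts along chromosome 19, with bars of 1 standard error. Shaded and unshaded stretches mark the 17 clusters, of which the larger are numbered. Of the 34 coloured points, 24 lie above 0 (red) and 10 below (blue), 9 of the 10 blue ones in the last 6 clusters, and wide bars include those of members with a single deviating library such as ZNF431, the highest point at 0.82.

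The neighbouring clusters from ZNF101 to ZNF43 and from ZNF724 to ZNF254, on either side of a gap between 21.85 and 23.22 Mb, had median log2 fold changes of 0.18 each. They were joined after their values were seen. Of their 20 members (chr19:19668796-24129961), 18 had a log2 fold change above 0, against 8364 of all 14959 genes. Groups that did not overlap were found in 10 of the 20, all of them higher. Over all genes, 53.6% did not overlap in either direction and 30.9% did not overlap and were higher. Of the 20, 5 passed the limma test as higher (25.0%, against 23.9% of all genes) and none as lower (against 16.8%). The share that passed as higher was thus near that of all genes. The share that was higher without overlap was above that of all genes, in a stretch joined with its values known, and was not tested. The median log2 fold change was 0.18, and 0.14 and 0.10 after scaling to equal medians and quantile normalization, with 3 rises and no fall in the latter. Their summed FPKM was 33.6 to 35.0 with miR-204-5p mimics (34.1 ± 0.744, SD, n = 3) and 25.2 to 28.1 with control mimics (26.2 ± 1.63, n = 3). The first 5 of the 20 members, from ZNF101 to ZNF90 (19.67 to 20.13 Mb), summed to 3.21 ± 0.238 FPKM against 3.25 ± 0.280, and none of them passed. The cluster from ZNF302 to ZNF792 (34.68 to 34.96 Mb, 5 members, 2 rose and none fell) had a larger median of 0.26. The members of all other clusters summed to 432 to 453 and 436 to 447 FPKM, where the groups overlapped, with a median of 0.00. Since the stretch was joined with its values known, this contrast is partly built into the choice.

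Besides ZNF681, the members of this stretch that passed were ZNF708 (2.94, 3.34 and 2.60 FPKM against 2.29, 2.02 and 2.28, log2 fold change 0.31), ZNF738 (4.50, 4.66 and 4.95 against 3.88, 3.68 and 3.85, 0.25), ZNF724 (1.05, 1.12 and 1.12 against 0.803, 0.854 and 0.738, 0.22) and ZNF100 (1.79, 1.85 and 1.74 against 1.52, 1.41 and 1.35, 0.20). The limma adjusted p-values of these 4 were 0.0297, 0.0162, 0.0138 and 0.0273. The call of ZNF708 was kept in 7 of 14 alternatives, with an adjusted p of up to 0.0908 in the others, that of ZNF100 in 6 of 14 (up to 0.138), that of ZNF738 in 12 of 14 (up to 0.0543) and that of ZNF724 in all 13 that could be run. Quantile normalization ended the calls of ZNF708 and ZNF100, and scaling to equal medians or equal sums that of ZNF100. A fit with the replicate number as a block ended those of ZNF708, ZNF738 and ZNF100. Leaving out any library but replicate 3 of the miR-204-5p mimics ended the call of ZNF708. That of ZNF100 was lost without replicate 1 or 2 of the miR-204-5p mimics or replicate 2 or 3 of the control mimics, and that of ZNF738 without replicate 2 of the control mimics. ZNF724 shares 52.1% of its windows with AC092329.3, and the longest coding sequence of ZNF738 holds no finger of the pattern searched. ZNF85 (1.64, 1.41 and 1.70 against 1.16, 0.634 and 1.21, limma adjusted p = 0.0520) and ZNF429 (3.53, 3.08 and 2.85 against 2.56, 2.57 and 2.59, limma adjusted p = 0.0632) missed the threshold although their groups did not overlap. So did ZNF90 (limma adjusted p = 0.0605), which was listed at 0 in 2 control libraries and did not exceed 0.103 FPKM. ZNF43, ZNF253 and ZNF254 did not exceed 0.138 FPKM in any library, and no difference was detectable at this depth.

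ZNF431, in the same stretch, had the largest log2 fold change of the whole list (0.82) without passing the test (limma adjusted p = 0.125). It read 3.21, 3.19 and 2.97 FPKM with miR-204-5p mimics, but 0.221, 2.34 and 2.13 with control mimics. Without replicate 1 of the control mimics the log2 fold change was 0.35 and the limma adjusted p 0.0182. Without ZNF431 altogether, the stretch summed to 31.0 ± 0.670 FPKM against 24.6 ± 1.50. The groups did not overlap, but the stretch had been joined with its values known, so this is no independent support.

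Such single deviating libraries were seen in 8 of the 135 members with a mean of at least 1 FPKM. A library was counted if it lay over 0.8 from the mean of the other 2 of its group on log2(FPKM + 1). Those 2 had to lie within 0.4 of each other. Such deviations occurred in each of the 6 libraries, and all but that of ZNF841 lay below the others. ZNF440 read 1.53 FPKM in replicate 1 of the miR-204-5p mimics and 5.80 and 6.15 in the others, and its log2 fold change of -0.61 became -0.12 without it. ZNF841 read 11.1 in replicate 1 of the control mimics and 3.37 and 4.18 in the others (-0.57, and -0.12 without it). ZNF302 read 1.55 in replicate 2 of the control mimics against 4.24 and 4.51 (0.43, and 0.07 without it), and ZNF587 1.83 in replicate 3 against 6.42 and 6.75 (0.53, and 0.06 without it). ZNF766, ZNF530 and ZNF584 are the other 3. None of the 8 passed the limma test with all libraries. Of the 9 members with a log2 difference over 0.5, ZNF431, ZNF440, ZNF841 and ZNF587 are of this kind, and the other 5 passed the test.

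The most abundant members differed little between the groups, with 2 exceptions. ZNF146, which encodes a short protein made almost wholly of fingers and no KRAB domain, read 15.7, 18.6 and 15.2 FPKM with miR-204-5p mimics and 16.5, 16.4 and 17.8 with control mimics (log2 fold change -0.03, limma adjusted p = 0.765). ZNF358 read 16.5, 14.4 and 14.9 against 14.3, 17.0 and 15.3 (-0.02), with 57.0% of its windows shared with AC008878.1, and ZNF317 13.0, 13.0 and 13.4 against 12.7, 12.1 and 12.6 (0.07, limma adjusted p = 0.234). The exceptions were ZNF581, given above, and ZNF121, a zinc finger protein reported to bind MYC. ZNF121 rose from 10.2, 10.4 and 10.3 to 12.2, 13.0 and 13.3 FPKM (log2 fold change 0.29, SE 0.0482, limma adjusted p = 0.00421) and has, with 1030 to 1488 inferred fragments per library, the most fragments of the 24 rises.

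Of 13 members picked for a known role, 11 are in the table, and none of them passed the limma test. At an unadjusted p under 0.05, 1 of the 11 (ZNF675) was reached. ZNF91, which silences SVA retrotransposons in primates, read 2.23, 2.58 and 3.00 FPKM with miR-204-5p mimics and 2.38, 2.16 and 2.07 with control mimics (log2 fold change 0.17, limma adjusted p = 0.203). ZNF93, which silences LINE-1 elements, overlapped widely between the groups (0.751 to 1.29 against 0.724 to 1.36 FPKM), and ZNF649 was listed at 0 in 5 of the 6 libraries. ZNF274, which brings TRIM28 and SETDB1 to the ends of zinc finger genes themselves, read 3.93, 4.03 and 4.08 against 3.83, 4.65 and 4.16 (-0.05).

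The transcriptional repressor ZNF224 (5.54 to 6.28 against 6.01 to 6.52 FPKM, log2 fold change -0.10), ZNF304 (2.00 to 2.65 against 2.75 to 2.99, -0.18) and ZNF473, whose protein takes part in the processing of histone pre-mRNA (4.20 to 4.58 against 3.94 to 4.09, 0.10), differed by at most 15.9% of their control means. ZNF675, an inhibitor of TRAF6 signalling, read 2.27, 2.29 and 2.61 against 2.00, 1.86 and 2.13 (0.18, limma adjusted p = 0.0866), without overlap. ZNF331, ZNF382 and ZNF671, genes known to be silenced by promoter methylation in carcinomas, did not exceed 0.246 FPKM in any library. Among the members named as leading their cluster, ZNF114 came closest to passing, with 1.40, 1.92 and 2.09 FPKM against 2.23, 2.57 and 2.64 (log2 fold change -0.32, limma adjusted p = 0.0573, and under 0.05 in 6 of the 14 alternatives). ZNF780A (0.28), ZNF574 (0.20) and ZNF507 (0.19) did not pass.

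miR-204-5p pairs with its targets mainly through its seed, bases 2 to 8 counted from the 5′ end. The mature sequence from RefSeq (GRCh38.p14, chr9:70810031-70810052, minus strand) is shown 5′ to 3′ with the seed in capitals, since the sites below are its complement.
hsa-miR-204-5p: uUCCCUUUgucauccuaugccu

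A site was called an 8mer where the 3'UTR holds AAAGGGAA, a 7mer-m8 where it holds AAAGGGA and no 8mer, and a 7mer-A1 where it holds AAGGGAA and neither of the others, searched for on the sense strand of the longest 3'UTR that GENCODE 29 annotates for a gene. Such matches were less frequent among the members than among all genes for the longer sites. An 8mer was the best match in 11 of 188 members with a 3'UTR (5.85%, all genes 8.60%) and a 7mer-m8 in 10 (5.32%, all genes 9.83%), while a 7mer-A1 was the best match in 25 (13.3%, all genes 8.66%). The median 3'UTR of the members is longer (1765 against 1252 bases). In coding sequences, 15 of 190 members held AAAGGGA (7.89%, all genes 14.9%), or 0.475 matches per 10 kb against 1.01 over all genes and 1.17 over ZNF genes of other chromosomes.

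No member with an 8mer or 7mer-m8 passed as lower. Falls were few in the list as a whole, at 5.24% of all members and 9 of the 142 with no match. Over all genes the median log2 fold change was -0.08 with an 8mer, -0.03 with a 7mer-m8, 0.00 with a 7mer-A1 and 0.06 with none, and 790 of 2703 genes with an 8mer or 7mer-m8 (29.2%) passed as lower. In the members the medians were -0.01, 0.03, 0.03 and 0.02. Of the 21 members with an 8mer or 7mer-m8, 1 passed as higher and none as lower, with log2 fold changes from -0.22 to 0.28, and 9 of the 21 hold the site within the listed transcript. Of the ZNF genes of other chromosomes, 27 have an 8mer, of which none passed as higher and 8 as lower, and 26 have a 7mer-m8, of which 2 passed as higher and 4 as lower. The members with such a site are few and low in level, and the difference from other genes was not tested.

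**Figure D5:**
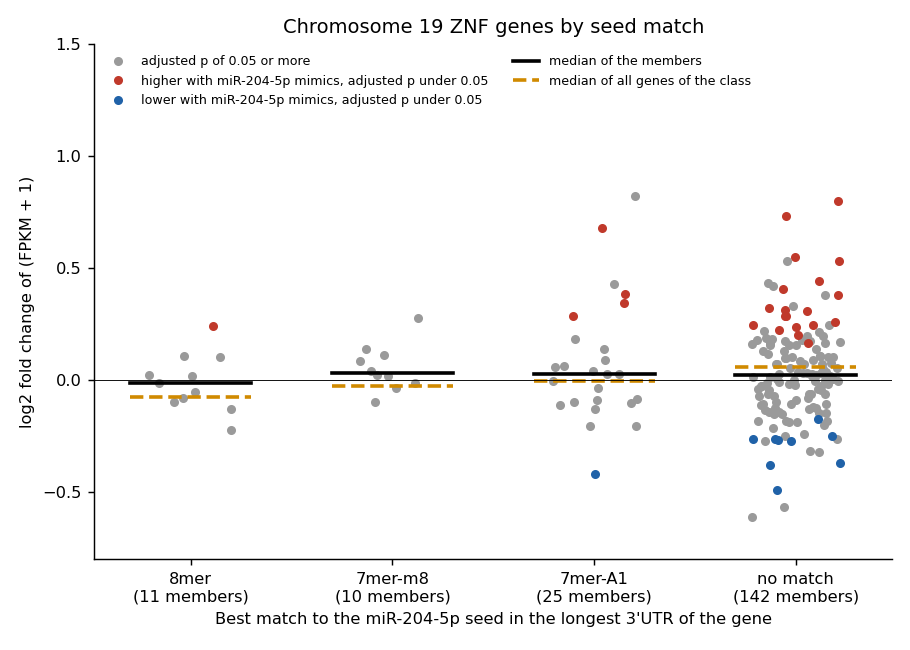
Log2 fold change of (FPKM + 1) of the 188 members with an annotated 3'UTR, by the best seed match in the longest 3'UTR. Each point is a member (red and blue, passed as higher and lower; grey, not passed), with the median of the members (black) and of all genes of the class (dashed). The dashed line climbs from -0.08 (8mer) to 0.06 (no match), while the black line stays between -0.01 and 0.03.

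The 8mer sites of 5 of the 11 members with an 8mer are printed with 10 bases on each side. So is the 7mer-A1 site of the member with the largest rise among those with a match that passed. These sites are examples and do not stand for the whole class, and ZNF793, with the largest decrease, is not among them. They are given 5′ to 3′ on the strand of the gene with the match in capitals, from GENCODE 29 transcripts (GRCh38), and each lies in an exon of the 3'UTR.
ZNF274 8mer, chr19:58213234-58213241, plus strand: actgaatgtgAAAGGGAAgtattgagtg
ZNF544 8mer, chr19:58261064-58261071, plus strand: ctgtttgctcAAAGGGAAcattgtgagc
ZNF792 8mer, chr19:34957755-34957762, minus strand: tccaatccctAAAGGGAAttaggagtag
ZNF224 8mer, chr19:44108821-44108828, plus strand: gtgtatccaaAAAGGGAAgcctgcaaaa
ZNF441 8mer, chr19:11782985-11782992, plus strand: tgtgcaaagtAAAGGGAAcaacaagagt
ZNF558 7mer-A1, chr19:8806992-8806998, minus strand: ataatatgttAAGGGAAatggaggaaa

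The site of ZNF274 starts 91 bases into a 3'UTR of 419, in a gene whose FPKM differed by less than the spread of the control libraries. ZNF544 read 3.46, 3.05 and 3.48 FPKM with miR-204-5p mimics against 2.95, 3.27 and 3.58 (log2 fold change 0.02), and ZNF792 1.32, 1.31 and 1.31 against 1.32, 1.49 and 1.80 (-0.13, limma adjusted p = 0.237). ZNF441, the member with an 8mer that passed, was higher with miR-204-5p mimics (1.37, 1.45 and 1.25 FPKM against 0.834, 0.994 and 1.17, log2 fold change 0.24, limma adjusted p = 0.0449). Its site and that of ZNF224 lie outside the listed transcript, and the call of ZNF441 held in 3 of the 14 alternatives. ZNF793, with an 8mer, had the largest decrease of the 21 (0.778, 0.679 and 0.997 against 1.17, 1.08 and 1.10 FPKM, -0.22, limma adjusted p = 0.0513). Its groups did not overlap, and its 8mer lies outside the listed transcript. ZNF558, which rose, holds its 7mer-A1 in the listed transcript, and so does ZNF543, which fell (-0.42). Of the 25 members with a 7mer-A1 as the best match, 4 passed as higher and 1 as lower. Over all genes these were 243 and 283 of 1270.

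The proteins differ in the number of fingers, counted in the translated longest coding sequence of GENCODE 29 as C, 2 residues, C, 12 residues, H, 3 to 5 residues and H. The members had a median of 12 (0 to 31, with ZNF91 highest, n = 190) and the ZNF genes of other chromosomes a median of 9. Of 89 members with more than 12 fingers, 12 rose and 6 fell (median log2 fold change 0.06), of 89 with 5 to 12, 11 rose and 2 fell (0.02), and of 12 with fewer than 5, 1 rose and 2 fell (-0.08). Over the whole list 12.6% rose and 5.24% fell, and over all genes 23.9% and 16.8%. A relation to the number of fingers was not tested. Promoters of 167 members matched RefSeq (GRCh38.p14, 250 bases before to 50 after the start). Their median GC content was 60.7% against 64.7% over 11452 genes.

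The partners of KRAB zinc finger proteins were read from a list of 19 genes, of which 5 rose (26.3%, against 23.9% of all genes) and 4 fell (21.1% against 16.8%). TRIM28 (81.2 ± 5.42 against 78.6 ± 4.47 FPKM, n = 3 each, limma adjusted p = 0.604) and SETDB1 (13.2 ± 0.525 against 12.5 ± 0.579, limma adjusted p = 0.349) did not pass. The falls were those of the deacetylase HDAC1 (62.5 ± 2.89 against 126 ± 2.49, limma adjusted p = 4.70e-05), ATRX (-0.35), CHD4 (-0.23) and the heterochromatin protein CBX1 (-0.18). UHRF1 (0.38), PPHLN1 (0.30), the heterochromatin protein CBX3 (0.26), HDAC2 (0.26) and the DNA methyltransferase DNMT1 (0.23) rose. Of 13 zinc finger genes of chromosome 19 with other names, 5 are in the table (ZFP14, ZFP30, ZSCAN4, ZSCAN5A and ZSCAN22), and none passed the limma test or reached an unadjusted p under 0.05.

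The value of a member can depend on how fragments were divided between related genes. A single transcript is listed for each, but whether the FPKM rests on it alone is not given. All 191 listed transcripts are in GENCODE 29, 174 of them protein-coding and 16 annotated as targets of nonsense-mediated decay. For 61 members the listed transcript has under 50% of the length of the longest one, 46 share over 5% of their 100-base windows with another gene, and 27 are overlapped over more than 5% by exons of the opposite strand. Of the 34 members that passed, 19 (13 higher and 6 lower) are free of all 3.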

How the data were processed

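RNA from 6 UM-SCC1 cultures (miRNeasy extraction, Illumina TruSeq libraries) was sequenced on an Illumina HiSeq X instrument, and the submitters' processing notes name HISAT2, StringTie and the genome build hg38 without versions. The deposited table gives FPKM per gene and library as computed by the authors, and lists 1 transcript with its length per gene. Neither the transcripts behind the FPKM nor the annotation release is given in the sources used here. The fold changes and edgeR p-values of the authors in the same table were not used, and no column of sample values was left out. Whole reads could not be recovered from the FPKM (7.93% to 10.1% of low values were whole within 0.02), so intervals that need counts are not given.

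The FPKM were tested as log2(FPKM + 1) with the lmFit and eBayes functions of limma 3.58.1 under R 4.3.3, with a trend of variance on level and without filter, scaling or covariate, over all 14959 genes, and the script was first tested on simulated data. The members and lists were chosen with earlier results of these data known. Members were named if they had 1 of the 10 largest changes in either direction (adjusted p under 0.05, mean of at least 1 FPKM in a group, no overlap between groups), were among the 5 most abundant, had a known role, or had the largest change of their cluster at a mean of at least 1 FPKM, and others were named after their values had been seen. 1 seed site is not reported here. Sequences and transcripts came from GENCODE 29 and RefSeq; fingers were counted in translated GENCODE coding sequences in place of RefSeq proteins. The alternatives were a pseudocount of 0.1, filters at a mean of 1 or 0.1 FPKM, 3 scalings, the replicate number as a block, eBayes without trend and each library left out. Same-numbered libraries of the 2 groups did not deviate together (correlations of -0.0401, -0.0210 and -0.108 over 11504 genes). Python 3.11.15, numpy 2.4.6, pandas 2.3.3 and matplotlib 3.10.9 were used for other steps.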

Additional observations from a re-analysis of the deposited data

How the results depend on the processing

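The number of members that rose was 24 as reported, 15 with quantile normalization, 15 with the replicate block and 17 to 20 with each library left out. The number that fell was 10 as reported, 21 with quantile normalization and 6 to 9 with each library left out, the 6 being without replicate 3 of the control mimics. Of the reported calls, quantile normalization kept 15 rises and 10 falls, and the replicate block 14 and 7, where numbers shared across the groups do not show a pairing of the samples. The ZNF genes of other chromosomes that rose numbered 33 as reported and 20 to 29 with each library left out, the 20 being without replicate 2 of the miR-204-5p mimics. No member that passed changed sign in any alternative. The balance of the members that rose and fell did turn with quantile normalization, from 24 and 10 to 15 and 21. Of 22 named members that did not pass, 5 changed sign in some alternative. Between 23 and 28 members rose and 10 to 13 fell with a pseudocount of 0.1, the 2 filters or eBayes without trend. Of the members that passed, ZNF333, ZNF529, ZNF345, ZNF20, ZNF552 and ZNF233 were inferred to rest on fewer than 20 fragments in at least 1 library, as were many members under 0.5 FPKM, where small differences are not detectable.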
